A study of Homo sapiens with 6 samples.

Results

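The 9 genes described here belong to the presentation of intracellular peptides on MHC class I molecules: the transcriptional activator NLRC5, the heavy chains HLA-B, HLA-C, HLA-E and HLA-F, the light chain B2M, both chains of the peptide transporter (TAP1 and TAP2) and tapasin (TAPBP). They were taken by symbol from the 37923 genes of the deposited tables, and each symbol matched 1 gene. RNA was sequenced from 3 libraries labelled ENZ and 3 labelled Control, all of cells labelled RKO, a human colorectal carcinoma line. Per the series design, ENZ cells had been exposed to compound A3, a degrader of the histone demethylase LSD1, and RNA was taken after 48 h. The labels do not say what the Control cells received or what the name ENZ abbreviates. Groups carry no other label, and the 3 libraries of a group are called biological replicates without saying whether dishes, passages or days differed, so a p-value here measures library-to-library spread alone, which may be technical.

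MHC class I molecules show fragments of a cell's own proteins to CD8 T cells. The proteasome cuts the proteins, TAP1 and TAP2 pump the peptides into the endoplasmic reticulum, and tapasin holds an empty heavy chain with B2M at the transporter until a peptide fits. NLRC5 carries no DNA-binding domain of its own and acts through a complex of RFX, CREB or ATF1 and NF-Y proteins that sits on neighbouring boxes of class I promoters, called X1, X2 and Y, and interferon raises the same genes through factors such as IRF1.

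Libraries held 26756840 to 30025543 counts in ENZ and 26691289 to 28207612 in Control. At these totals 3 counts, the upper limit that a count of 0 allows for counting error alone, equal 0.0999 to 0.112 CPM (counts scaled to 1000000 counts per library). KDM1A, which encodes LSD1, averaged 108 ± 3.18 CPM in ENZ and 113 ± 2.15 CPM in Control (SD, n = 3 each), with a log2 fold change of −0.02 (95% interval −0.11 to 0.06). A degrader removes the protein, so this transcript does not check the exposure. Markers of colorectal epithelium were mostly scarce in libraries of both groups: 7 of the 9 in the table averaged under 1 CPM, and VIL1, at 57.8 ± 1.58 CPM in ENZ and 39.9 ± 1.18 CPM in Control, made up nearly all of their sum. By contrast 0 of 12 prostate luminal markers averaged under 1 CPM, and their sum came to 3259 to 3290 CPM in ENZ and 3037 to 3105 CPM in Control, so the libraries went against the label of a colorectal line and are called here by their group names. With the line in doubt, the treatment rests on the labels alone. Every fold below is one of libraries labelled ENZ over libraries labelled Control. Of 15 leukocyte markers, 13 averaged under 1 CPM, CD3E and ITGAM had 0 counts in all 6 libraries, and the common leukocyte antigen gene PTPRC averaged 0.0682 CPM in ENZ and 0.110 CPM in Control. Summed leukocyte markers came to 15.6 to 17.2 CPM in ENZ and 18.1 to 19.6 CPM in Control. Summed fibroblast and endothelial markers, of which 8 of 12 averaged under 1 CPM, came to 41.6 to 44.7 CPM in ENZ and 79.8 to 89.2 CPM in Control, mostly from LUM. The part of these in the results below was not tested, and in bulk RNA fewer cells of a type cannot be told apart from less RNA per cell.

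Transcripts of NLRC5, of 3 heavy chains and of TAP1 and TAPBP were higher in ENZ, B2M was slightly lower, and TAP2 did not pass the test. The B2M call was lost with offsets for GC content and length (log2 fold change 0.05, adjusted p = 0.362). Of the 9 genes 8 had enough counts to be tested, and 6 were higher and 1 lower in ENZ at an adjusted p under 0.05 (edgeR's quasi-likelihood test, Benjamini-Hochberg adjustment over 18581 genes). In the same comparison 20.5% of all tested genes were higher and 19.3% lower, 39.8% in all. The median log2 fold change of the 8 genes was 0.24, and that of all tested genes was −0.01. Past an absolute log2 fold change of 1, the limit stated in the series design, was 1 of the 8 genes, NLRC5; 0.737% of all tested genes were called higher past it and 2.24% lower. In CPM the groups did not overlap for 7 of the 8 genes, 5 of them higher and 2 lower in ENZ, against 49.2% of all tested genes, 21.7% higher and 27.6% lower.

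**Figure D1:**
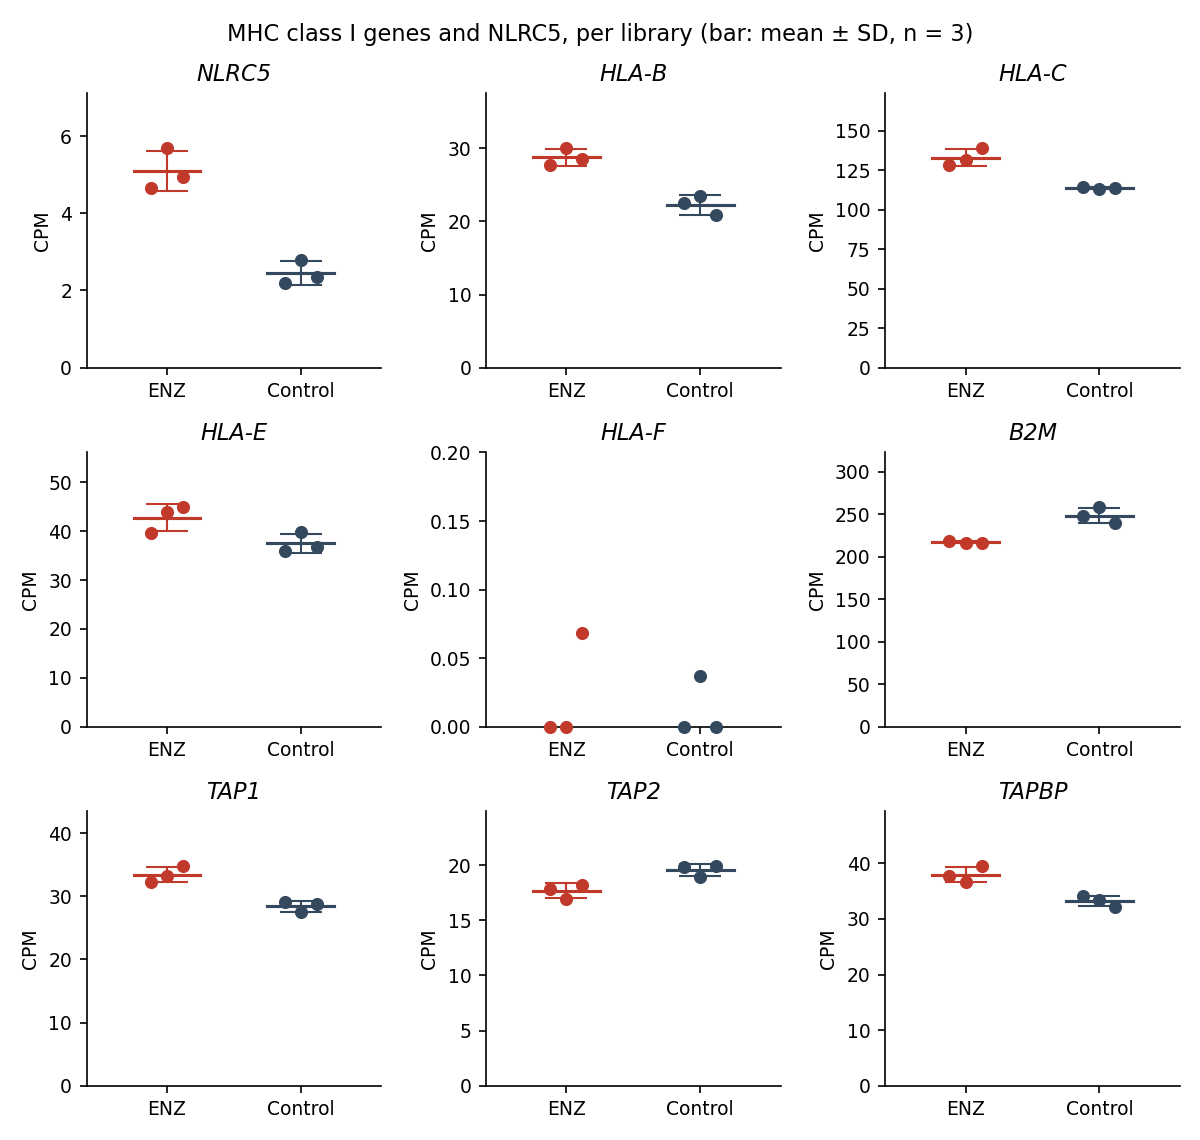
CPM (y axis, from 0, a scale of its own in each panel) of the 9 genes in 3 ENZ and 3 Control libraries; points are libraries and bars show mean ± SD, left out for HLA-F, which had at most 2 counts. Relative to its level NLRC5 shows the widest gap, 4.66 to 5.68 CPM in ENZ against 2.20 to 2.80 CPM in Control, and B2M and TAP2 lie lower in ENZ.

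NLRC5 (ENSG00000140853; chromosome 16, 56989485 to 57083531, plus strand, GRCh38) encodes the activator of the class I genes. It had 140, 152 and 145 counts in ENZ, against 62, 76 and 63 counts in Control, which are 4.66, 5.68 and 4.93 CPM in ENZ and 2.20, 2.80 and 2.36 CPM in Control. Every ENZ library lay above every Control library, and replicate 2 was the highest of its group in both. The fitted fold was 2.12 (log2 fold change 1.09 ± 0.14 SE, 95% interval 0.79 to 1.38, adjusted p = 3.33e-06 in edgeR's test). Its fold change exceeded those of 99.5% of tested genes, while its level per length was low, at 0.411 ± 0.0426 FPKM (counts per kilobase of gene length, scaled to 1000000 counts) in ENZ and 0.198 ± 0.0250 FPKM in Control. At so low a level log2(FPKM + 1) compresses the difference, to 0.24 in the unfiltered fit (adjusted p = 0.0467, limma). Another 2 genes of the annotation overlap NLRC5, neither with a base of its exons.

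The classical heavy chains carry peptides to T cells. HLA-B (ENSG00000234745; chromosome 6, 31353872 to 31367067, minus strand) had 27.7, 30.0 and 28.6 CPM in ENZ, against 22.5, 23.4 and 20.8 CPM in Control. The groups did not overlap, and the log2 fold change was 0.41 ± 0.07 SE (95% interval 0.27 to 0.54, adjusted p = 4.05e-05). HLA-C (ENSG00000204525; chromosome 6, 31268749 to 31272130, minus strand) had 128, 132 and 139 CPM in ENZ, against 115, 113 and 114 CPM in Control. Control libraries were nearly equal, ENZ libraries spread more, and the log2 fold change was 0.26 ± 0.04 SE (95% interval 0.17 to 0.35, adjusted p = 3.97e-05). HLA-C thus outnumbered HLA-B in reads in every library, with HLA-B at 0.206 to 0.228 counts per HLA-C count in ENZ and 0.183 to 0.208 in Control, ranges that overlap.

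HLA-E and HLA-F are non-classical heavy chains. HLA-E (ENSG00000204592; chromosome 6, 30489509 to 30494194, plus strand), whose product presents leader peptides of other class I chains to NK cell receptors, had 39.6, 44.0 and 44.9 CPM in ENZ, against 36.1, 39.8 and 36.8 CPM in Control. ENZ replicate 1 fell just under Control replicate 2, so the groups overlapped, and the log2 fold change was 0.22 ± 0.06 SE (95% interval 0.10 to 0.35, adjusted p = 0.00583). HLA-F (ENSG00000204642; chromosome 6, 29722775 to 29738528, plus strand) had 0, 0 and 2 counts in ENZ, against 0, 1 and 0 counts in Control. Every library was under the limit of 3 counts, HLA-F was not tested, and no fold is given. HLA-F-AS1, a long non-coding gene on the opposite strand, covers 12.4% of the exonic bases of HLA-F and had at most 9 counts.

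Heavy chain genes resemble one another, so reads can be shared or lost between them and each single HLA count is uncertain. The 14 class I rows of the table, pseudogenes included, were therefore also summed: HLA-B, HLA-C and HLA-E held 95.2% of the sum, which averaged 214 ± 9.01 CPM in ENZ and 183 ± 3.11 CPM in Control (log2 fold change 0.26, 95% interval 0.18 to 0.34; adjusted p = 2.07e-05 with the rows joined, edgeR). The HLA-B row also covers bases of other genes: 30.7% of its exonic bases lie in the pseudogene DHFRP2, which had at most 2 counts in any library.

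B2M (ENSG00000166710; chromosome 15, 44711358 to 44718851, plus strand) encodes the light chain that every class I heavy chain needs. It had 218, 216 and 216 CPM in ENZ, against 248, 258 and 239 CPM in Control. ENZ libraries were nearly equal and all lay below Control, with a log2 fold change of −0.16 ± 0.04 SE (95% interval −0.24 to −0.08, adjusted p = 0.00155). B2M was thus the gene of the 8 called lower, and the sign of that difference changed with offsets for GC content and length, as given further on.

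Promoter windows are printed for 5 genes: 3 heavy chains, the light chain and TAP1. They are shown because NLRC5 is known to act at promoters of class I genes. Of the boxes it acts through, cores of X2 and Y are marked, and X1 was not searched. The other marks are interferon elements, not boxes of NLRC5. Windows run from 250 bases before to 50 bases after a gene's start and come from RefSeq (GRCh38.p14), whose table matched 7 of the 9 genes, with a pair of windows for TAP1; NLRC5 and HLA-E had no entry. Capitals mark matches on either strand to the core of the Y box (CCAAT) and the core of the X2 box (TGACG). They also mark the core of the interferon-stimulated response element (GAAA, NN and GAAA in a row) and the gamma-interferon-activated site (TTCNNNGAA). For the NF-kB element a single form was searched, GGGANTTCC. Other forms of these elements were not searched, so lowercase letters may still hold them.
HLA-B promoter, chr6:31357130-31357429, minus strand: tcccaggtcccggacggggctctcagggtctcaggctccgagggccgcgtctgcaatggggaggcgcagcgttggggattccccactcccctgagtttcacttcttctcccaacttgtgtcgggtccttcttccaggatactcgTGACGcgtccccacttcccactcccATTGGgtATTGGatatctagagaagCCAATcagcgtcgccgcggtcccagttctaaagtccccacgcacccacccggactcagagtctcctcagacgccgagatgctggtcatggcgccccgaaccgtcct
HLA-C promoter, chr6:31272043-31272342, minus strand: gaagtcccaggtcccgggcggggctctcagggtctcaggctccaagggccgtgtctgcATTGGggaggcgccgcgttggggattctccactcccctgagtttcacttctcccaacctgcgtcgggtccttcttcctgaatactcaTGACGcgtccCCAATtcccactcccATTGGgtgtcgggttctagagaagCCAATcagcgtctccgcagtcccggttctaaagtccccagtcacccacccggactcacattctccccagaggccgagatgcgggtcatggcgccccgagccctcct
HLA-F promoter, chr6:29723184-29723483, plus strand: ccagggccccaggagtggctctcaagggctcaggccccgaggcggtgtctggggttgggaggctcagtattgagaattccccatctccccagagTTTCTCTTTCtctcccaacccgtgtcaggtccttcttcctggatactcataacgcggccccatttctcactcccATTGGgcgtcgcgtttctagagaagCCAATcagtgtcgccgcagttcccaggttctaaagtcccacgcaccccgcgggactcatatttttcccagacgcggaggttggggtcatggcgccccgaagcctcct
B2M promoter, chr15:44711267-44711566, plus strand: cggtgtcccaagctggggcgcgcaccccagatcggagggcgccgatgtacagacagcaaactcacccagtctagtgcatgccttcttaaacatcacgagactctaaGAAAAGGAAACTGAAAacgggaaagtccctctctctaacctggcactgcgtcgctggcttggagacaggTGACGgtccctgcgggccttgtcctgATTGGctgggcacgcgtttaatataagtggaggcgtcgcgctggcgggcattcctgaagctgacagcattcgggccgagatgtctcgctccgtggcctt
TAP1 promoter, chr6:32853655-32853954, minus strand: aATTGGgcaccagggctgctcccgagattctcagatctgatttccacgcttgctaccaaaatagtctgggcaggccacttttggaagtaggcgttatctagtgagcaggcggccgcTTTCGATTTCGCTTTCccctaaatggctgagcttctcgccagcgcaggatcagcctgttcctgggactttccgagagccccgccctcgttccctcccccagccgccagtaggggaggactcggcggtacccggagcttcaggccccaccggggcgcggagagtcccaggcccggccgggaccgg
Windows of HLA-B, HLA-C and B2M each held both a Y box core and an X2 box core, a pair that 8.69% of the 35116 windows of the table hold. In HLA-B the X2 core began 106 bases before the start and the Y cores began 81, 74 and 56 bases before it. In HLA-C the X2 core began 105 bases before the start. The HLA-F window had Y cores 82 and 57 bases before its start and no match to TGACG. The printed TAP1 window had a Y core 249 bases before its start and no match to TGACG. The interferon element core, in 3.57% of all windows, had overlapping matches in B2M, TAP1 and TAPBP and single matches in HLA-F and TAP2. CCAAT alone is in 34.6% of windows and TGACG in 24.6%, and matches to TTCNNNGAA (7.66% of windows) and GGGANTTCC (1.85%) were in TAP1's other window and in TAPBP. A match describes letters only.

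Ratios of counts within a library do not depend on library scaling. They were chosen after the values were seen. HLA-B per B2M count was 0.127, 0.139 and 0.133 in ENZ, against 0.0908, 0.0909 and 0.0870 in Control, a 1.48-fold higher mean in ENZ. HLA-C per B2M count averaged 0.613 ± 0.0284 in ENZ and 0.459 ± 0.0190 in Control, and HLA-E per B2M count 0.197 ± 0.0143 in ENZ and 0.151 ± 0.00485 in Control (SD, n = 3 each). All 3 ratios were higher in every ENZ library than in any Control library; the two-sided exact permutation p was 0.1 for each, the smallest that 3 against 3 allows (0.117 adjusted over 7 ratios). With offsets for GC content and length, the difference in log2 fold change between HLA-B and B2M was 0.32 in place of 0.57, that between HLA-C and B2M 0.11 in place of 0.42, and that between HLA-E and B2M 0.13 in place of 0.38.

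**Figure D2:**
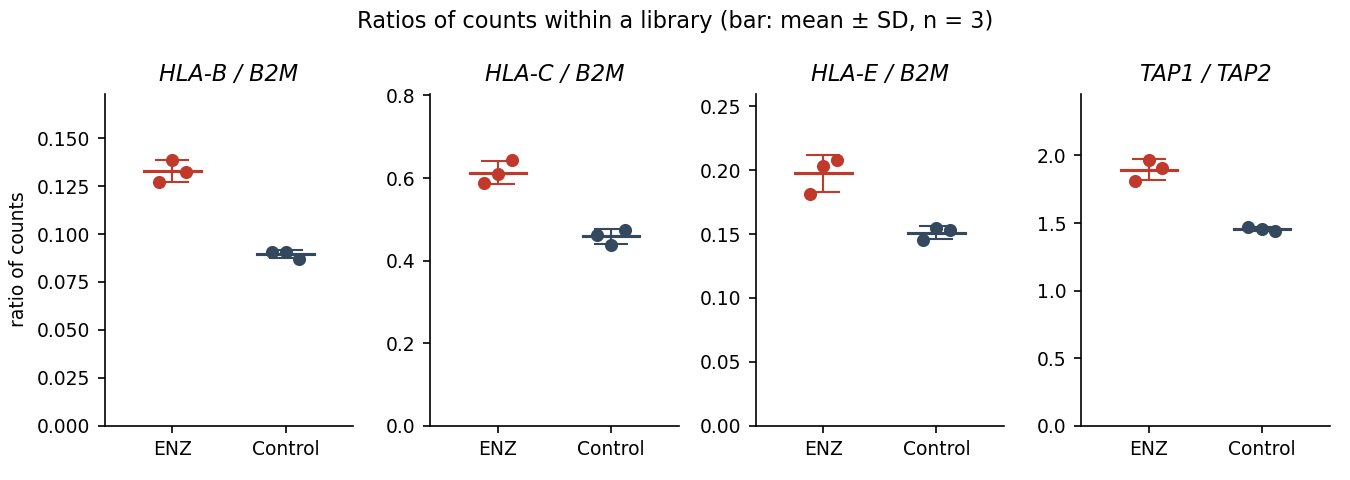
Ratios of counts within each library (y axis, from 0) for heavy chains over B2M and for TAP1 over TAP2, in 3 ENZ and 3 Control libraries; points are libraries and bars show mean ± SD. ENZ libraries lie above Control libraries in all 4 panels, with TAP1 over TAP2 at 1.81 to 1.97 in ENZ and 1.44 to 1.47 in Control.

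TAP1 and TAP2 form one transporter from neighbouring genes of the class II region of chromosome 6. TAP1 (ENSG00000168394; 32845209 to 32853816, minus strand) had 32.3, 33.3 and 34.8 CPM in ENZ, against 29.1, 27.5 and 28.7 CPM in Control. No ENZ library reached down to a Control library, and the log2 fold change was 0.27 ± 0.06 SE (95% interval 0.15 to 0.39, adjusted p = 9.66e-04). TAP2 (ENSG00000204267; 32821833 to 32838739, minus strand) had 17.9, 16.9 and 18.2 CPM in ENZ, against 19.8, 18.9 and 19.9 CPM in Control. On library totals its groups did not overlap, with ENZ the lower, but the fitted log2 fold change of −0.11 ± 0.07 SE did not pass the test (95% interval −0.25 to 0.03, adjusted p = 0.222). TAP1 counts per TAP2 count averaged 1.89 ± 0.0793 in ENZ and 1.46 ± 0.0132 in Control, with every ENZ library higher (two-sided exact permutation p = 0.1, 0.117 adjusted over 7 ratios), and the difference in log2 fold change between TAP1 and TAP2 was 0.38, or 0.30 with GC and length offsets.

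TAPBP (ENSG00000231925; 33299694 to 33314284, minus strand), which bridges the transporter and the empty heavy chain, had 37.8, 36.7 and 39.5 CPM in ENZ, against 34.1, 33.3 and 32.2 CPM in Control. The groups did not overlap, and the log2 fold change was 0.23 ± 0.06 SE (95% interval 0.11 to 0.34, adjusted p = 0.00267). Other genes overlap TAP1, TAP2 and TAPBP, and without strand their reads cannot be told apart from reads of an antisense gene: PSMB8-AS1, antisense, covers 14.2% of the exonic bases of TAP1 and had 2 to 14 counts in any library. A protein-coding gene on the same strand covers 19.5% of those of TAP2 and had at most 1 count. An antisense long non-coding gene covers 21.0% of those of TAPBP and had 15 to 39 counts.

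**Figure D3:**
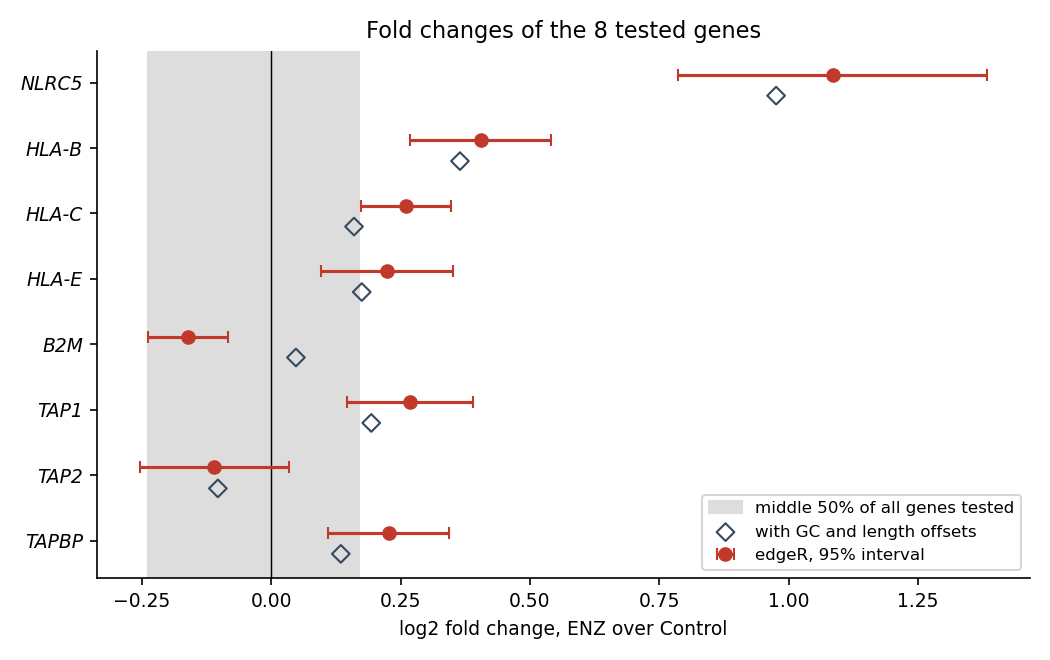
Log2 fold change, ENZ over Control (x axis), of the 8 tested genes: filled points with 95% intervals from edgeR, open diamonds from the fit with GC and length offsets; the grey band spans the lower to the upper quartile of all tested genes. The 6 genes called higher lie to the right of the band, from HLA-E at 0.22 to NLRC5 at 1.09, and the 2 values of B2M lie on either side of 0.

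Per length the 9 genes spanned a wide range of levels. In FPKM the order in ENZ was B2M (69.5 ± 0.411), HLA-C (53.0 ± 2.18), HLA-E (14.7 ± 0.974), TAPBP (7.71 ± 0.286), TAP1 (7.21 ± 0.267), HLA-B (6.23 ± 0.248), TAP2 (2.79 ± 0.106) and NLRC5 (0.411 ± 0.0426), with HLA-F at the floor. Control had the same order, with B2M at 79.6 ± 2.99, HLA-C at 45.4 ± 0.339, HLA-E at 12.8 ± 0.686, TAPBP at 6.75 ± 0.196, TAP1 at 6.13 ± 0.185, HLA-B at 4.81 ± 0.286, TAP2 at 3.08 ± 0.0856 and NLRC5 at 0.198 ± 0.0250 FPKM. TAPBP and TAP1 overlapped between ENZ libraries, and no other neighbours in either order did. The place of HLA-B depends on the 4623 bases that the files use as its length, against 2507 for HLA-C. B2M and HLA-C stood above 97.3% and 95.3% of tested genes in mean FPKM, and NLRC5 above 12.2%. Spread between libraries of a group was 0.592% to 6.65% of the mean for the tested genes other than NLRC5, which had 10.4% in ENZ and 12.6% in Control.

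Across all tested genes, log2 fold change went up with transcript GC content (Spearman rho 0.34 over 18538 genes, which are not independent), and the class I genes differ in it. B2M had 38.9% GC and the other 7 tested genes 47.2% (TAP2) to 62.7% (HLA-C). Genes of 36 to 39% GC, where B2M lies, had a median log2 fold change of −0.18, next to −0.16 for B2M itself. Genes of 60 to 63% GC had a median of 0.13 and an upper quartile of 0.29, against 0.26 for HLA-C. HLA-E at 0.22 and TAPBP at 0.23 lay near the upper quartile, 0.22, of genes of 54 to 57% GC, whose median was 0.06. Genes of 51 to 54% GC had a median of 0.05 and an upper quartile of 0.21, against 0.41 for HLA-B. At 57 to 60% GC the median was 0.09 and the upper quartile 0.25, against 1.09 for NLRC5 and 0.27 for TAP1. With per-library offsets for GC content and length, the 6 genes called higher were still called higher. On the log2 scale NLRC5 was at 0.98, HLA-B at 0.36, HLA-C at 0.16, HLA-E at 0.18, TAP1 at 0.19 and TAPBP at 0.13. That fit called more genes higher in general, 4894 of 18538 beside 3116 lower, against 3814 and 3579 without offsets. Its median log2 fold change over all genes was 0.03. B2M then had a log2 fold change of 0.05 and was not called (adjusted p = 0.362), and TAP2 stayed at −0.10 without a call (adjusted p = 0.213). Whether the GC trend comes from the libraries or from the cells cannot be told apart in this design.

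**Figure D4:**
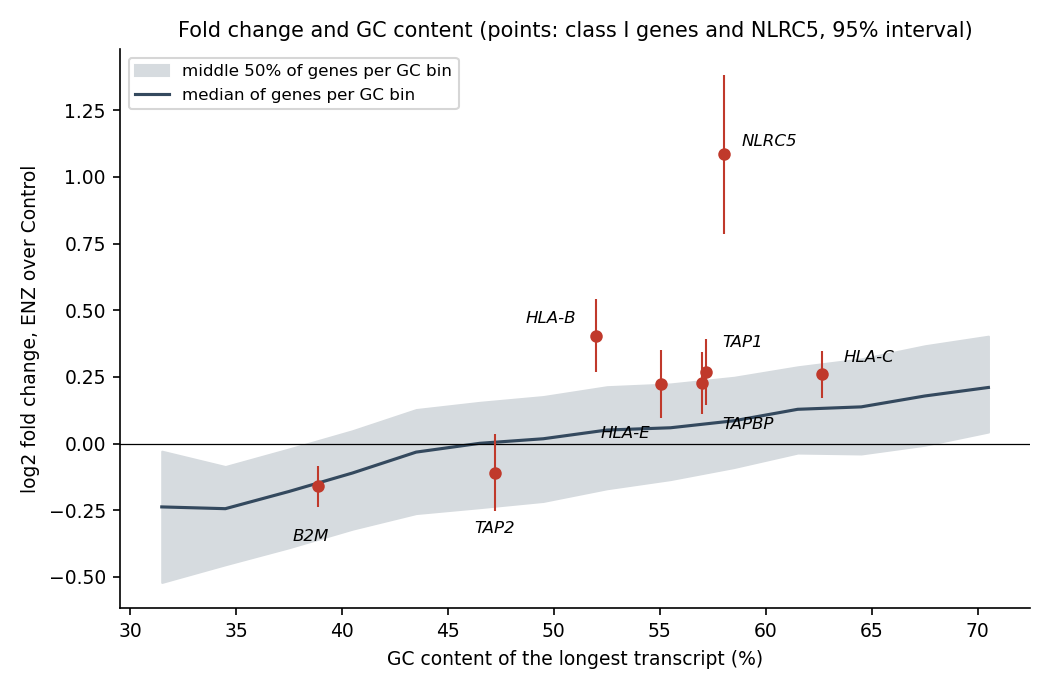
Log2 fold change, ENZ over Control (y axis), against GC content of the longest transcript (x axis, percent); the line and band give the median and quartiles of all tested genes in bins of 3 percentage points, and points with 95% intervals are the 8 tested genes. B2M lies on the line at −0.16, and NLRC5 at 1.09 and HLA-B at 0.41 lie above the band.

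Of 16 tested loading partners in the endoplasmic reticulum and other class I chains, 7 were lower and 2 higher in ENZ, 56.2% called beside 39.8% of all tested genes, with a median log2 fold change of −0.22 beside −0.01 over all tested genes. The lectin chaperone calreticulin (CALR) averaged 1555 ± 54.6 CPM in ENZ and 2006 ± 44.6 CPM in Control (log2 fold change −0.33, adjusted p = 1.08e-07). Calnexin (CANX), which folds free heavy chains, averaged 1049 ± 16.5 CPM in ENZ and 1367 ± 17.0 CPM in Control (−0.35, adjusted p = 1.02e-08; −0.22 with GC and length offsets). PDIA3, the oxidoreductase paired with tapasin, fell by 0.26 and the glycoprotein checkpoint enzyme UGGT1 by 0.36. These chaperones serve secreted and membrane proteins in general. The trimming peptidases ERAP1 and ERAP2 had log2 fold changes of −0.19 (adjusted p = 0.0681) and −0.66 (adjusted p = 0.0672), ERAP2 at 0.656 ± 0.147 CPM in ENZ and 1.07 ± 0.213 CPM in Control. Among those higher was MR1, the chain that shows vitamin B metabolites to MAIT cells, at 46.0 ± 1.29 CPM in ENZ and 33.8 ± 2.29 CPM in Control (0.48, adjusted p = 9.98e-07).

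Of 16 tested genes of the immunoproteasome and peptide supply, 7 were higher and 1 lower, 50% called beside 39.8% of all tested genes, with a median log2 fold change of 0.13. Across the alternative settings 1 to 9 were called higher. Among the 7 were the constitutive catalytic subunits PSMB5, PSMB6 and PSMB7, at 0.12, 0.15 and 0.21, all called with GC and length offsets too. PSMB8, an interferon-inducible catalytic subunit encoded beside TAP1, had 175, 154 and 181 counts in ENZ, against 130, 113 and 137 in Control (log2 fold change 0.39, edgeR, adjusted p = 0.011). PSMB8 was not called in DESeq2, on unfiltered log2(FPKM + 1) or without Control replicate 2. Its inducible partners were scarcer and did not pass: PSMB9 averaged 1.15 ± 0.245 CPM in ENZ and 0.782 ± 0.222 CPM in Control (0.60, 95% interval 0.03 to 1.17, adjusted p = 0.0892, called without Control replicate 2), and PSMB10 2.37 ± 0.539 CPM in ENZ and 2.14 ± 0.0159 CPM in Control (0.18, adjusted p = 0.453). The proteasome activator subunit PSME1 rose by 0.23, while its partner PSME2 had −0.05 and no call. The cytosolic peptidase TPP2 fell by 0.26, or by 0.086 with GC and length offsets (edgeR, adjusted p = 0.0443).

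**Figure D5:**
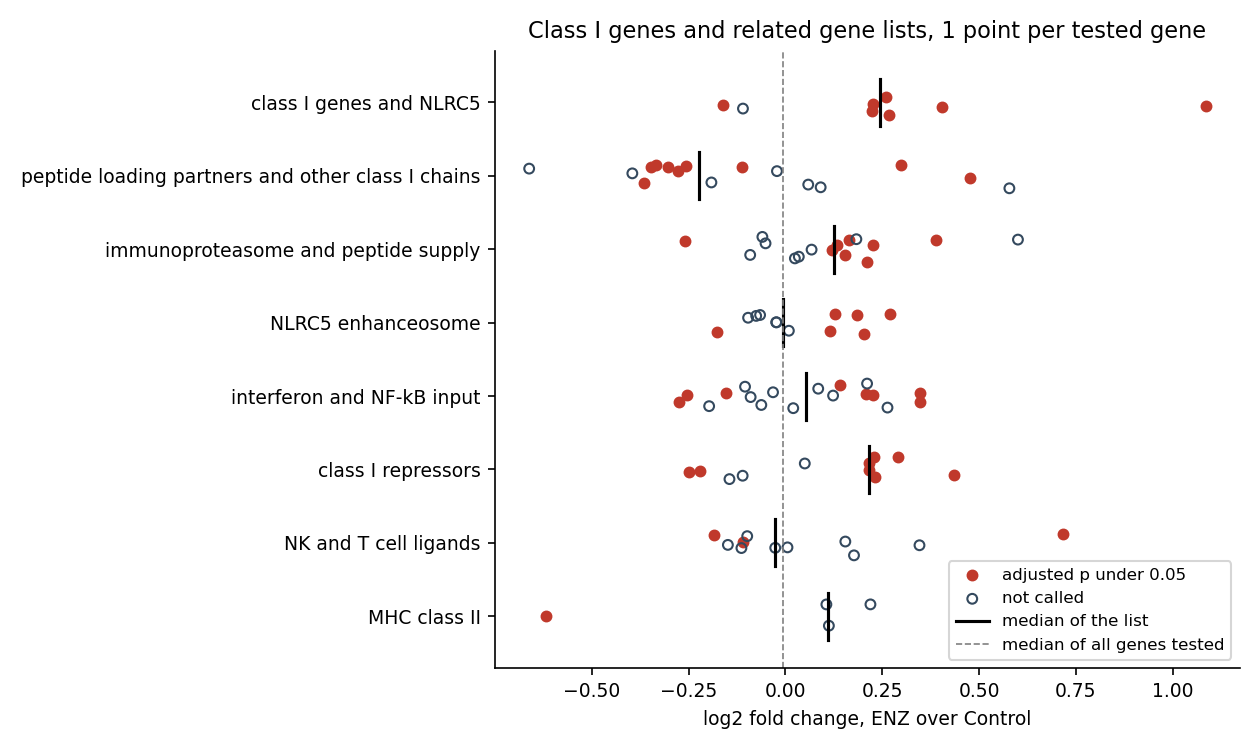
Log2 fold change, ENZ over Control (x axis), of each tested gene of the class I set and of 7 related lists; filled points were called, open points were not, the black bar is the list's median and the dashed line the median of all tested genes. Loading partners have a median of −0.22, class I genes one of 0.24.

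Of 12 genes encoding the complex through which NLRC5 reaches DNA and its cofactors, 5 were higher and 1 lower, 50% called beside 39.8% of all tested genes, with a median log2 fold change of −0.01. RFX5, which binds the X1 box, averaged 62.6 ± 0.581 CPM in ENZ and 58.7 ± 2.05 CPM in Control (0.13, adjusted p = 0.0373), a call absent in 10 of 18 alternative settings, DESeq2 and the fits without Control replicate 1 or 3 or ENZ replicate 2 or 3 among them. The Y box subunit NFYC rose by 0.27, the acetyltransferase CREBBP by 0.20 (0.12 with GC and length offsets) and the histone methyltransferase EHMT2 by 0.19. CREBBP was not called on unfiltered log2(FPKM + 1). EHMT2 was not called with GC and length offsets or without Control replicate 1 or ENZ replicate 2. It was also not called on log2(FPKM + 1), filtered or not, or log2(FPKM + 0.1). NFYB was the 1 called lower (−0.18, adjusted p = 0.0368). With GC and length offsets it had 0.06 and no call. The call was also absent in DESeq2, on log2(FPKM + 1), filtered or not, and log2(FPKM + 0.1). It was absent too without Control replicate 1 or 2 or ENZ replicate 3.

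Of 18 tested genes of interferon and NF-kB input 5 were higher and 3 lower, 44.4% called beside 39.8% of all tested genes, with a median log2 fold change of 0.05. IFNGR2, a chain of the interferon gamma receptor, rose by 0.35 (adjusted p = 0.00135, edgeR). IFNGR1, the other chain of that receptor, fell by 0.25 (adjusted p = 0.00145, edgeR). With GC and length offsets IFNGR1 had −0.08 and no call. STAT2 rose by 0.35 (adjusted p = 2.41e-04, edgeR). The NF-kB subunit gene REL fell by 0.27, with no call under GC and length offsets or without Control replicate 1. REL was also not called on log2(FPKM + 1), filtered or not, or log2(FPKM + 0.1). IRF1, an interferon-induced factor and direct activator of NLRC5 and class I genes, averaged 1.55 ± 0.144 CPM in ENZ and 1.56 ± 0.0862 CPM in Control (0.02, 95% interval −0.39 to 0.43; no call in any setting).

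Genes known to lower class I presentation were called both ways, 6 higher and 2 lower of 11 tested, 72.7% beside 39.8% of all tested genes. Their median log2 fold change was 0.22, beside −0.01 over all tested genes. MARCHF9, a membrane ubiquitin ligase, averaged 40.5 ± 0.308 CPM in ENZ and 30.7 ± 0.899 CPM in Control (log2 fold change 0.43, adjusted p = 1.60e-06). TMEM127 and WWP2, parts of a complex that sends class I molecules to lysosomes, rose by 0.29 and 0.23, or 0.22 and 0.13 with GC and length offsets. Polycomb subunits EZH2 and SUZ12, which can silence class I genes, fell by 0.22 and 0.25. With GC and length offsets EZH2 fell by 0.086. SUZ12 was not called with GC and length offsets, on unfiltered log2(FPKM + 1), or without Control replicate 1 or 3. On 6 libraries, log2 CPM of WWP2 was the most like that of NLRC5 among 95 tested genes of these lists, with a Pearson r of 0.987, followed by ULBP1 at 0.981 and PSME1 at 0.962. The 9 class I genes were left out of that ranking, and HLA-B among them had 0.980. All 6 points are shared with the group contrast, and 7.16% of all tested genes had an r over 0.95 with NLRC5.

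MHC class II transcripts were scarce: 11 of 13 genes averaged under 1 CPM and 4 were tested. CIITA, the class II counterpart of NLRC5, had 51, 58 and 41 counts in ENZ, against 66, 68 and 91 in Control. No ENZ library reached the Control libraries, and the log2 fold change of −0.62 ± 0.20 SE (95% interval −1.03 to −0.21, adjusted p = 0.0155) had the opposite sign to that of NLRC5; the call was absent in DESeq2, on unfiltered log2(FPKM + 1), and without Control replicate 3 or ENZ replicate 3.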

How the data were processed

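Polyadenylated RNA was made into libraries with a kit that keeps no strand, per the labels' protocols. The submitters' processing notes name GRCh38 as the build, DESeq2 (1.20.0), HTSeq (0.6.1) and HISAT2 (2.0.5); which annotation and strand setting were used is not given in the sources used. Raw gene-level counts and FPKM were deposited by the authors; the deposited FPKM equalled count over gene length and library total to within 4.69e-06 percent (values of at least 10 counts). Genes without a symbol held 0.875% of the counts.

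The comparison used edgeR 4.0.16 under R 4.3.3, with TMM factors, default expression filter, robust quasi-likelihood F test, Benjamini-Hochberg adjustment over 18581 genes, calls at an adjusted p under 0.05. SE is the absolute log2 fold change over the square root of F. The procedure was tested on simulated data. CPM are counts scaled to 1000000 of the library total. Positions, overlaps and GC content (longest transcript) came from GENCODE release 44. Offsets were natural splines with 4 degrees of freedom each in GC content and length.

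The 9 genes and all lists were chosen with earlier results of these data known. Named were all 9 and a few set members. Also named were the 3 called genes per list with the largest change and a mean of at least 1 CPM. NFYB, IFNGR1, PSMB5, PSMB6, PSMB7, PSME2, PCGF1 and EED, outside that rule, were named after their values were seen. Some genes of these lists are not reported here. Alternatives were DESeq2 1.42.0, limma 3.58.1 (voom, and log2(FPKM + 1) or log2(FPKM + 0.1) with a filter of 1 FPKM, and log2(FPKM + 1) without it), other scalings and filters, offsets, the replicate number as a block, summed HLA rows, and each library left out. Replicate pairs of a group differed by 1.99 to 6.77 in chi-square per degree of freedom, so none was a copy. Intervals and floors cover counting error only where they rest on counts of 1 library.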

Additional observations from a re-analysis of the deposited data

How the results depend on the processing

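The 6 higher calls (NLRC5, HLA-B, HLA-C, HLA-E, TAP1, TAPBP) held in 15 of the 18 settings; 5 were made on filtered log2(FPKM + 1) or log2(FPKM + 0.1), where NLRC5 was under the filter, and 4 on unfiltered log2(FPKM + 1), where HLA-E (adjusted p = 0.145) and TAPBP (adjusted p = 0.0524) were not called. NLRC5 ranged from 0.24 (unfiltered log2(FPKM + 1)) to 1.2, and from 1.00 to 1.2 with a library left out. Values that changed sign with GC and length offsets, and then with the replicate block added, were B2M (0.048 and 0.049, neither called), NFYB (0.059 and 0.060), IRF1 (−0.037 and −0.035) and KDM1A (0.010 and 0.0095), leaving 0 of the 9 genes called lower; without offsets B2M stayed between −0.20 and −0.13. IRF1 was −0.015 on library totals and −0.0014 on unfiltered log2(FPKM + 1). With a library left out, IRF1 ranged from −0.039 to 0.087, PSMB10 from −0.025 to 0.30 and KDM1A from −0.048 to 0.0051, none called. TAP2 was called in no setting. Calls over all genes ranged from 5844 to 8258 with a library left out (3041 to 4264 higher, 2782 to 3994 lower) and were 3728 on unfiltered log2(FPKM + 1) (1723 higher and 2005 lower); on filtered log2(FPKM + 1) and log2(FPKM + 0.1) 2526 and 2520 were higher. Same-numbered libraries did not deviate together (r of 0.018, −0.012 and −0.046, beside −0.064 to 0.075 between other numbers). That shows no pairing by number but cannot exclude a paired design. With the replicate block 7466 genes were called and the 9 genes' calls were the same. Of the other named genes, those named after their values were seen aside, RFX5 kept its call least often, and the cause was not tested. Counts in the small lists moved most, from 1 to 9 called higher for the immunoproteasome list and from 1 to 6 for the NLRC5 complex. HLA-F, PSMB9 and most class II genes had few counts, and the cause of that was not tested.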

Other observations

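Of 11 tested surface ligands read by NK and T cells 1 was higher and 2 lower in ENZ, 27.3% called beside 39.8% of all tested genes, with a median log2 fold change of −0.03. ULBP1, a stress ligand of the receptor NKG2D, had 113, 106 and 118 counts in ENZ, against 61, 78 and 61 in Control (log2 fold change 0.72 ± 0.15 SE; edgeR, adjusted p = 5.85e-04). NCR3LG1, the ligand of NKp30, fell by 0.18 and PVR, the ligand of DNAM-1 and TIGIT, by 0.11. The PVR call was absent in DESeq2, on unfiltered log2(FPKM + 1) and with no filter on low counts. It was also absent in 5 of the 6 fits with a library left out, the one without ENZ replicate 3 excepted.

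Of 7 tested relatives of NLRC5 among the NOD-like receptors 1 was higher and 2 were lower, 42.9% called beside 39.8% of all tested genes. NLRX1, a mitochondrial member, averaged 43.6 ± 1.29 CPM in ENZ and 35.1 ± 1.43 CPM in Control (0.35, adjusted p = 2.95e-05; 0.20 with GC and length offsets). The inflammasome gene NLRC4 averaged 1.01 ± 0.119 CPM in ENZ and 1.68 ± 0.206 CPM in Control (−0.70, edgeR, adjusted p = 0.0139). NLRC4 was not called in DESeq2, on unfiltered log2(FPKM + 1), or without Control replicate 3 or ENZ replicate 2. CIITA was the other one lower.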
